A study of Mus musculus with 3 samples.

Results

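Macrophages of the mouse heart with little or no Folr2, Lyve1 and Cbr2 message were followed through pressure overload. They were 502 of the 6915 cells with at least 200 detected genes in 3 single-cell libraries of ventricular non-CMs. The cells were chosen by their measured counts of unique molecular identifiers (UMIs): at least 5 UMIs of C1qa, C1qb and C1qc together, and over 2 times as many of these as of each of 3 sets, Pecam1, Cdh5, Kdr and Egfl7 (endothelial), Col1a1, Col1a2 and Pdgfra (fibroblast, FB), and Myh11, Rgs5 and Vtn (mural). Of the C1q macrophages found in this way (840, 89 and 39 in the healthy, 2-week and 12-week libraries), the 502 with at most 1 UMI of Folr2, Lyve1 and Cbr2 together were taken and are called members. Members with at least 5 UMIs of H2-Aa, H2-Ab1 and H2-Eb1 together were called class II-high (402 cells), and the other members class II-low (100 cells). The 466 C1q macrophages with 2 or more UMIs of Folr2, Lyve1 and Cbr2 are called Folr2/Lyve1/Cbr2 macrophages and serve for comparison.

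All 3 libraries came from wild-type C57BL/6JJcl mice, which the study's methods give as males of 8 weeks at surgery. One was made from control hearts without transverse aortic constriction (TAC; healthy, 0 weeks), another 2 weeks after TAC (adaptive hypertrophy), and the last 12 weeks after TAC (heart failure). The ventricles were digested in warm collagenase, and the number of hearts per library is not given in the sources used here. With 1 library per phase no difference between phases could be tested: library, hearts and phase cannot be told apart, and all intervals below are exact 95% intervals that cover counting error only.

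C1q, made of the products of C1qa, C1qb and C1qc, starts the classical complement pathway and is made largely by macrophages. MHC class II molecules carry peptides to CD4+ T cells. H2-Aa and H2-Ab1 encode the chains of I-A, and H2-Eb1 encodes a chain of I-E. The invariant chain Cd74 escorts them through the cell and H2-DM loads their peptide. In the heart, macrophages with Folr2, Lyve1 and Timd4 are known as long-lived residents that renew themselves, whereas macrophages with Ccr2, the receptor for the monocyte chemokine Ccl2, are replenished from blood monocytes, and class II marks several macrophage states and conventional dendritic cells.

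The class II split used genes that lie close together on chromosome 17 of mm10: H2-Ab1 at chr17:34257689-34269419 on the plus strand, H2-Aa at chr17:34282744-34287823 on the minus strand, and H2-Eb1 at chr17:34305867-34316674 on the plus strand. H2-DMa (chr17:34119541-34139101) and H2-DMb1 (chr17:34153072-34160230), outside the choice of cells, lie on the plus strand of the same chromosome. The 250 bases upstream of the start of H2-Aa (chr17:34287824-34288073, minus strand) and of H2-Eb1 (chr17:34305617-34305866, plus strand) are shown, 5′ to 3′ and from RefSeq on GRCm38.p6, because class II genes are known to be controlled together through a shared upstream module. Capitals mark the letters ATTGG, the core of the Y box of that module, and CCAAT, the same core on the other strand.
H2-Aa: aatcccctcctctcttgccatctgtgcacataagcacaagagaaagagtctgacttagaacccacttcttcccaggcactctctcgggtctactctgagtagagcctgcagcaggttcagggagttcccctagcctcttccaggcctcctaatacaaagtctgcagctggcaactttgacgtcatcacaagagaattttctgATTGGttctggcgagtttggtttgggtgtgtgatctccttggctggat
H2-Eb1: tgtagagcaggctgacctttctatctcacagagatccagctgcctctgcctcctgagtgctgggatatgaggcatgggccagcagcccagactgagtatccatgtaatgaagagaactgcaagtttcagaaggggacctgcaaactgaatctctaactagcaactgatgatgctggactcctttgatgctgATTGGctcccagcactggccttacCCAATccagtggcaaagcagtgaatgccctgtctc
In H2-Aa the core starts 48 bases before the start of the gene, and in H2-Eb1 it starts 59 bases before it, with the other-strand copy at 35. On either strand, the core stood in a promoter of 9 of 12 class II and presentation genes in the table, H2-DMa, H2-DMb1, H2-Oa and H2-Ob among them, and not in those of Ctss, Ifi30 and Cd80. It stood in 33.8% of all 32851 promoters of the same length, so a match is a description of the letters only.

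Members carried markers of macrophages beyond the C1q genes that chose them. As CPM, the UMIs of a gene summed over the members of a library and scaled to the same total for every group, Csf1r (the receptor for macrophage colony-stimulating factor) was at 694, 725 and 836 CPM at 0, 2 and 12 weeks, Adgre1 (F4/80) at 384, 342 and 304 and Lyz2 (lysozyme) at 13605, 8625 and 13371. These 3 markers, which the choice did not use, were present in every library. In the healthy library the members had a median of 29 C1q UMIs per cell and Folr2/Lyve1/Cbr2 macrophages 48. The absence of Folr2 and Lyve1 is a matter of threshold: of the healthy members 74.7% had no UMI of Folr2, Lyve1 or Cbr2 and 25.3% had exactly 1, and 12.6% of the healthy Folr2/Lyve1/Cbr2 macrophages lay just outside the limit with exactly 2. Of the members at 2 and 12 weeks, 92.4% and 70.4% had none, and 7.59% and 29.6% had exactly 1.

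Some markers of other blood cells were close to 0 in members, but the monocyte and dendritic lists as a whole were not. The 19 monocyte genes summed to 2659, 5872 and 4786 CPM at 0, 2 and 12 weeks, with a UMI in 378 of 396, 74 of 79 and 23 of 27 cells, and Ccr2 and S100a4 among them are described below. The 16 dendritic-cell genes summed to 447, 560.0 and 623 CPM, with a UMI in 212 of 396, 47 of 79 and 12 of 27 cells, and include Cd209a, with 69 UMIs in 6 healthy members. Of the monocyte list, Ly6c2, Plac8 and Chil3, which mark circulating monocytes, had 3, 11 and 1 UMIs in 396 healthy members, and 0, 0 and 1 at 2 weeks as well as at 12 weeks. The dendritic-cell genes Flt3, Zbtb46, Xcr1 and Clec9a had 1, 2, 4 and 3 UMIs in the healthy members and 3, 0, 0 and 0 at 2 weeks, and all 4 were at 0 at 12 weeks. Napsa, on the same list, was found in 12 of 396, 15 of 79 and 2 of 27 members at 0, 2 and 12 weeks. T- and NK-cell markers Cd3d, Cd3e, Nkg7 and Klrb1c were at 0 in the healthy and 2-week members and had 1 UMI in all at 12 weeks. FB transcripts were different: Dcn, Gsn, Col3a1, Lum, Sparc and Mgp summed to 1757 CPM, 436 CPM and 1535 CPM in members at 0, 2 and 12 weeks, with a UMI in 88.4%, 46.8% and 92.6% of cells.

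Depth differed between libraries. Members had a median of 2456, 1812 and 1720 UMIs per cell at 0, 2 and 12 weeks, and 3.03%, 11.4% and 18.5% of them had over 10% of UMIs from mitochondrial genes. At 12 weeks 3 of the 4 class II-low cells were above that limit. Scrublet called 10 healthy members and none of the others as doublets. No member barcode was shared by members of different libraries.

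The first question was how large a part of the C1q macrophages the members were in each phase. They were 396 of 840 C1q macrophages in the healthy library (47.1%, 43.7-50.6%), 79 of 89 at 2 weeks (88.8%, 80.3-94.5%) and 27 of 39 at 12 weeks (69.2%, 52.4-83.0%). Since the limit of 1 UMI lets in more cells at lower depth, all cells were also thinned to 1000 UMIs before the choice, which gave 64.2% (528 of 823) at 0 weeks, 91.5% (65 of 71) at 2 weeks and 63.3% (19 of 30) at 12 weeks. The 2-week share stayed above the healthy one at equal depth, and the 12-week share, at 30 cells, did not.

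Among all cells of a library, members were 10.2%, 3.54% and 3.41% at 0, 2 and 12 weeks, and Folr2/Lyve1/Cbr2 macrophages 11.4%, 0.448% and 1.52%. Both groups were therefore rarer among the cells after TAC, and at 2 weeks 10 Folr2/Lyve1/Cbr2 macrophages were left in 2231 cells. The share of a type in a dissociated sample also moves with how many other cells were recovered: FB-like cells numbered 1015, 84 and 136 in the 3 libraries. Outside endothelial-like cells, members were 12.8%, 7.64% and 4.34% of cells.

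**Figure D1:**
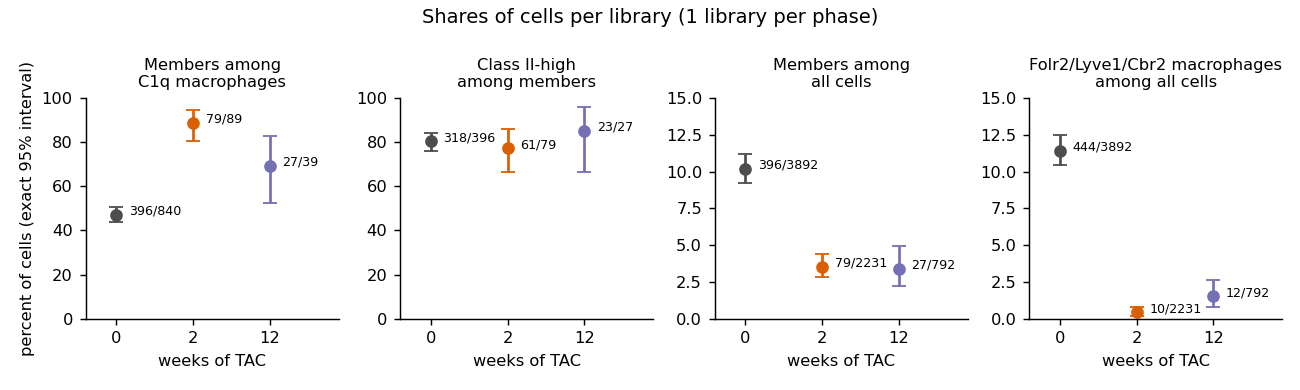
Percent of cells (y axis) against weeks of TAC (x axis), 1 point per library, with exact 95% intervals and the numbers of cells beside each point; the right-hand panels have a shorter y axis. Members made up 47.1% of C1q macrophages in the healthy library and 88.8% at 2 weeks, while the class II-high share of members stayed between 77.2% and 85.2%.

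The class II-high share of members was 80.3% (318 of 396, 76.0-84.1%) at 0 weeks, 77.2% (61 of 79, 66.4-85.9%) at 2 weeks and 85.2% (23 of 27, 66.3-95.8%) at 12 weeks, so the intervals of the 3 libraries overlapped. With members chosen among cells thinned to 1000 UMIs it was 68.9% (364 of 528, 64.8-72.9%), 70.8% (46 of 65, 58.2-81.4%) and 94.7% (18 of 19, 74.0-99.9%), and the 0- and 12-week intervals no longer overlapped; the 12-week value rests on 19 cells. Class II UMIs per cell were widely spread. Class II-high members had a median of 68, 58 and 64 UMIs of H2-Aa, H2-Ab1 and H2-Eb1 per cell, and class II-low members 1, 1 and 0. In the healthy library few cells lay near the limit of 5: 10 members had 3 or 4 class II UMIs and 8 had 5 or 6, and 9.60% had none. At 2 weeks 5 of 79 members had 3 or 4 and 3 had 5 or 6. With a limit of 10 the 2-week class II-high share was 65.8%. For comparison, 41.0% of the healthy Folr2/Lyve1/Cbr2 macrophages and 0.296% of the healthy FB-like cells had 5 or more class II UMIs, at median depths of 2948 and 3234 UMIs.

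**Figure D2:**
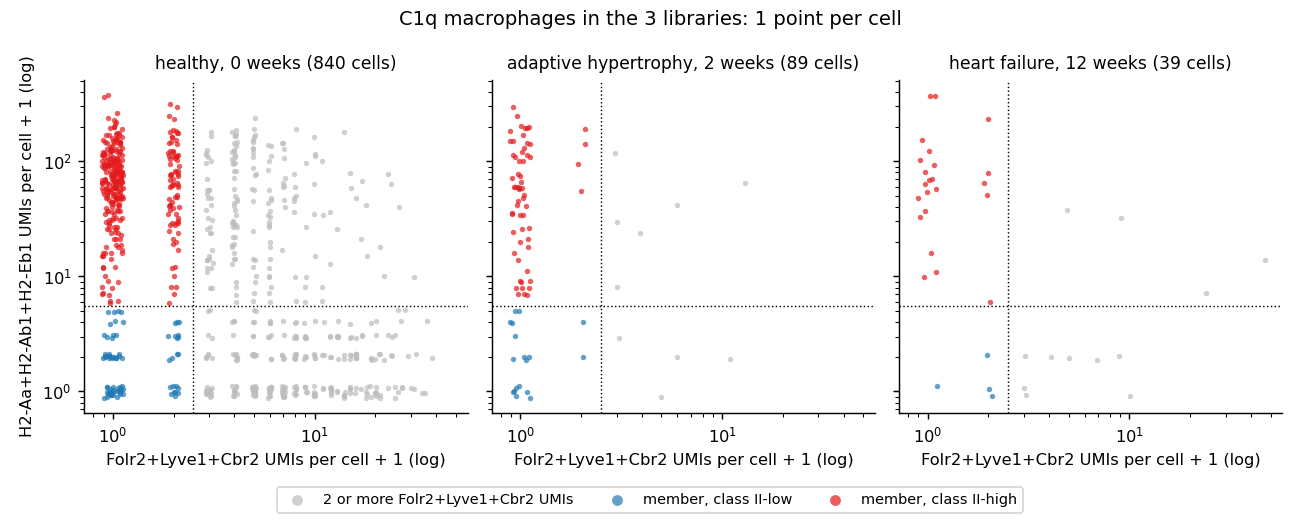
Each point is 1 C1q macrophage, with its Folr2, Lyve1 and Cbr2 UMIs plus 1 (x axis, log scale, slightly jittered) against its H2-Aa, H2-Ab1 and H2-Eb1 UMIs plus 1 (y axis, log scale, slightly jittered), in 1 panel per library; dotted lines are the limits used to choose the cells. The cloud of class II-high members centres on a median of 68, 58 and 64 UMIs, and the right-hand part of the panel, which holds 444 cells at 0 weeks, holds 10 at 2 weeks.

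Class II-high and class II-low members were then compared gene by gene in each library. The split was made on class II itself, so these values describe the 2 groups. A gene entered if its UMIs in the groups added up to 20 or more, and it was counted when its CPM differed 2-fold or more. Of 4501 genes compared in the healthy library, 4.80% were 2-fold or more higher in class II-high members (216) and 7.38% lower (332). The median log2 ratio over all of them was -0.20. With ratios divided by their median, 312 were higher and 192 lower, and without the top cell of each gene in both groups 296 and 173.

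Of 9 genes of antigen presentation outside the choice of cells, 3 were 2-fold or more higher in healthy class II-high members and none lower. Of all genes compared, 4.80% were higher and 7.38% lower. Cd74, the invariant chain, stood at 38375 CPM against 2734 in class II-low members, a ratio of 14 (95% interval 12.9-15.4). At 2 weeks it stood at 36175 against 2129 CPM, a ratio of 17 (95% interval 13.5-21.6). H2-DMb1, a chain of the peptide loader, was at 719 against 54.4 CPM (13.2, 95% interval 7.14-27.7), and its partner H2-DMa at 800.4 against 152 (5.26, 95% interval 3.61-7.97). The escort and the peptide loader thus followed the class II chains. The processing and costimulatory genes of the list did not differ by as much: the ratio was 1.29 (95% interval 1.14-1.47) for Ctss, the protease that trims the invariant chain, 0.883 for the protease Lgmn, 0.814 for the thiol reductase Ifi30, and 1.06, 1.05 and 1.09 for the costimulatory Cd86, Cd83 and Cd40. At 2 weeks 4 of the 8 genes compared were 2-fold or more higher, against 8.18% of all 1161 genes compared in that library, where 10.2% were lower.

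Class II-low members of the healthy library had more cell-cycle message. All 7 cycling genes compared were lower in class II-high members, 6 of them 2-fold or more, where 2903 of all 4501 genes had a ratio below 1 and 7.38% were 2-fold or more lower. Top2a, a topoisomerase of dividing cells, had 8 UMIs in 4 of 318 class II-high members and 22 UMIs in 11 of 78 class II-low members, a ratio of 0.0793 (95% interval 0.0305-0.185). Birc5 (survivin) stood at a ratio of 0.103 (95% interval 0.0412-0.24) and Stmn1, a regulator of microtubules, at 0.227 (95% interval 0.15-0.343). The tubulin genes Tubb5 and Tuba1b were at ratios of 0.261 and 0.324. The cells behind this were few: of all 396 healthy members 15 had a UMI of Top2a, 11 of Mki67, and 9 of both.

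Of 15 genes of resident macrophages compared in the healthy library, 13 had a ratio below 1, as had 2903 of all 4501 genes. Against 7.38% of all genes, 2 of the 15 were 2-fold or more lower. These were the transcription factor Maf (0.442, 95% interval 0.335-0.586) and the growth factor Igf1 (0.479, 95% interval 0.341-0.681). Pf4, a chemokine of resident macrophages, was at 1858 against 3098 CPM, a ratio of 0.60 (95% interval 0.545-0.661); F13a1, the coagulation factor subunit, was at 0.517, the mannose receptor Mrc1 at 0.644 and selenoprotein P (Sepp1) at 0.825. The lectin Mgl2 went the other way at 1.41 (95% interval 1.1-1.83). General macrophage genes differed less: Lyz2 was at 0.999, Cd68 at 1.15, Adgre1 at 0.887 and Csf1r at 0.748, and none of the 18 genes on that list differed 2-fold. Csf1r was still the lower one in class II-high members. With healthy cells thinned to equal depth, it was found in 44.7% (39.1-50.3%) of class II-high and 62.8% (51.1-73.5%) of class II-low members. The intervals of the same shares overlapped for Lyz2, Cd68 and Adgre1. At 2 weeks 8 of 9 resident genes had a ratio below 1, as had 617 of all 1161 genes. Of the 9, 3 were 2-fold or more lower, against 10.2% of all genes, and Pf4 was at 0.569 (95% interval 0.394-0.834).

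Among chemokines, cytokines and matrix genes of healthy members, osteopontin (Spp1) was at a ratio of 0.393 (95% interval 0.236-0.668), the growth factor Areg at 0.297 (95% interval 0.186-0.481), and the monocyte chemokines Ccl7 and Ccl12 at 0.493 and 0.485, all lower in class II-high members. Areg went the other way at 2 weeks, with 34 UMIs in class II-high and 0 in class II-low members. The metalloproteinases Mmp13 and Mmp12 were higher, at 3.61 (95% interval 2.14-6.54) and 2.69 (95% interval 1.18-7.57). Il1b was at 1.29 (95% interval 1.18-1.42). Apoe, an apolipoprotein that macrophages make, was at 1.06 (95% interval 1.02-1.1) in the healthy library and at 0.375 (95% interval 0.348-0.406) at 2 weeks, where 6 of 13 lipid genes were 2-fold or more lower in class II-high members, against 10.2% of all genes compared.

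**Figure D3:**
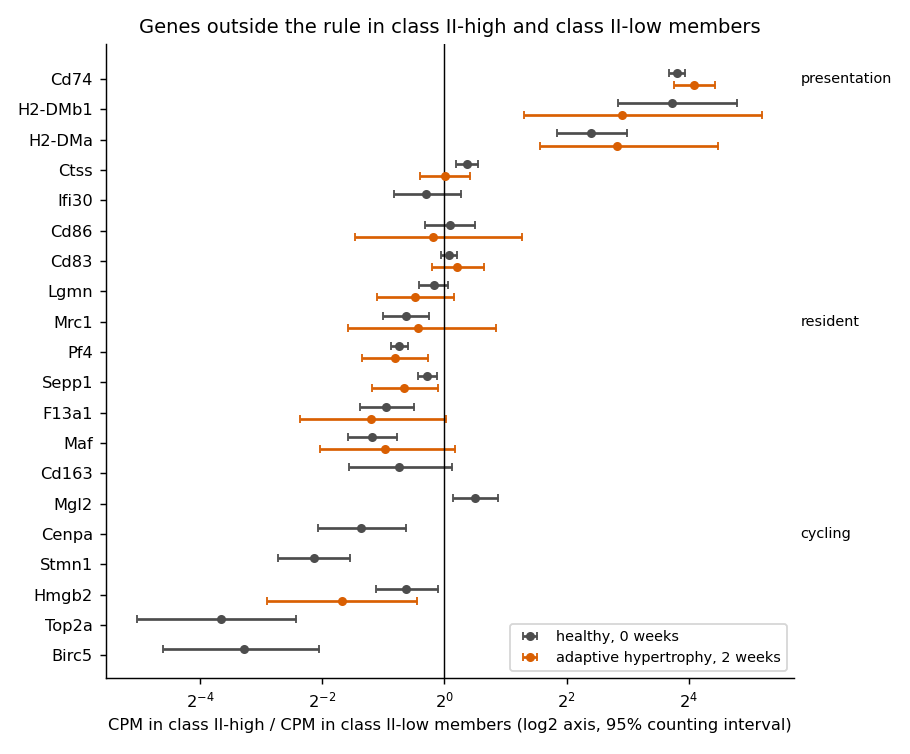
Ratio of a gene's CPM in class II-high to that in class II-low members (x axis, log2 scale) with 95% counting intervals, in the healthy (grey) and 2-week (orange) libraries, for genes outside the choice of cells, listed on the y axis; genes with under 20 UMIs are left out. Cd74, H2-DMb1 and H2-DMa lie far to the right in both libraries (14.0, 13.2 and 5.26 at 0 weeks), and the cycling genes Top2a and Birc5 lie farthest to the left (0.0793 and 0.103).

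Ccr2 was found in 40 of 318 class II-high and 0 of 78 class II-low members at 0 weeks, in 25 of 61 and 3 of 18 at 2 weeks, and in 7 of 23 and 0 of 4 at 12 weeks. With 0 UMIs in the healthy class II-low members, its level in class II-high members was at least 4.8-fold higher when 3 UMIs were set for the group, and the exact 95% interval of the ratio started at 3.79. The 2-week counts depended on depth: thinned to 1000 UMIs per cell, Ccr2 was found in 20 of 318 class II-high and 0 of 78 class II-low members at 0 weeks, and in 11 of 52 (21.2%) and 3 of 13 (23.1%) at 2 weeks. Cells with Ccr2 also had more class II: a median of 119 class II UMIs with Ccr2 and 48 without it at 0 weeks, 59 and 23 at 2 weeks, and 101 and 41.5 at 12 weeks. They were deeper as well, with medians of 3181 and 2378 UMIs at 0 weeks, 1987 and 1751 at 2 weeks, and 2908 and 1270 at 12 weeks, and the part of depth in this was not tested. FB-like cells, which should lack Ccr2, had it in 0 of 1015, 0 of 84 and 1 of 136 cells, at median depths of 3234, 2628 and 2910 UMIs.

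Cd209a, a lectin of monocyte-derived dendritic cells, was confined to few cells. It had 69 UMIs in 6 class II-high members of the healthy library, 33 of them in 1 cell and 62 in the top 2 cells. It had none in class II-low members or in the 444 Folr2/Lyve1/Cbr2 macrophages. These 6 cells had a median of 10.5 C1q UMIs, against 29 in the other members, and 2 of them also had Ccr2. At 2 weeks 2 members had Cd209a, both with Ccr2. Ccl17, a chemokine of dendritic cells, had 28 UMIs in 3 other healthy members. Some genes at the top of the ranking rest on 1 cell: all 105 UMIs of Dct were in 1 cell, as were 24 of the 26 UMIs of Terf2ip in class II-low members, and Retnla (resistin-like alpha), at a ratio of 3.67, was at 1.78 (0.975-3.56) without its top cell of 205 UMIs. Ist1, in contrast, had 44 UMIs spread over 40 class II-high cells and 0 in class II-low members, at least 3.2-fold with 3 UMIs set for the group and with an exact interval that started at 2.49. At 2 weeks Ist1 did not stand apart in this way, with 14 UMIs in 13 of 61 class II-high and 3 UMIs in 3 of 18 class II-low members (105 and 84.0 CPM).

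The 2-week members were compared with the healthy members next. Of 4997 genes compared, 10.9% were 2-fold or more higher at 2 weeks and 9.45% lower (547 and 472), with a median log2 ratio of 0.06. Without the top cell of each gene in both groups, 359 were higher and 682 lower, and with ratios divided by their median 469 and 545. The monocyte list stood higher: all 8 compared had ratios above 1, as had 2685 of all 4997 genes, and 4 were 2-fold or more higher. Ccr2 stood at 64.2, 265 and 319 CPM at 0, 2 and 12 weeks, a ratio of 4.13 (95% interval 2.76-6.12) at 2 weeks. Thinned to 1000 UMIs per cell, it was found in 5.05% (3.11-7.69%) of members at 0 weeks and in 21.5% (12.3-33.5%) at 2 weeks, where 14 shallower cells were left out; unthinned shares were 10.1% and 35.4%. The calcium-binding S100a4 stood at 96.4, 678 and 365 CPM in the 3 libraries, in 42 of 396 healthy and 24 of 79 2-week members, with a ratio of 7.04 (95% interval 5.33-9.3) at 2 weeks. S100a6, its relative, was at 341, 1515 and 942 CPM, a ratio of 4.45 (95% interval 3.77-5.24). In FB-like cells S100a4 was at 2.08 (95% interval 1.5-2.83).

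Fibronectin (Fn1) and thrombospondin 1 (Thbs1), matrix proteins that monocytes and early macrophages also make, were among the 8 genes with lower bounds farthest above 1. Fn1 stood at 14.6, 495 and 258 CPM at 0, 2 and 12 weeks, a 2-week ratio of 33.9 (95% interval 19.4-63.3), with 84 UMIs in 11 of 79 members at 2 weeks and 15 UMIs in 7 of 396 at 0 weeks. Thbs1 stood at 21.4, 419 and 0 CPM, a ratio of 19.5 (95% interval 12-33.1), with 71 UMIs in 8 cells at 2 weeks. The cells overlapped: 6 of the 8 members with Thbs1 also had Fn1, and 8 of the 11 with Fn1 also had S100a4. Without the top cell of each library the ratios were 37.6 for Fn1 and 24.4 for Thbs1. FB-like cells had Fn1 in 29.4% of cells at 0 weeks and 50% at 2 weeks, and Thbs1 in 36.4% and 51.2%, and their part in the members' Fn1 and Thbs1 was not tested. Retnla at 2 weeks was a matter of 2 cells, with 458 UMIs, 317 of them in 1 cell, and both cells also had Fn1. Its ratio was 8.64. When the members were chosen among cells thinned to 1000 UMIs, Retnla had 0 UMIs at 2 weeks and 97 at 0 weeks. With the members kept and then thinned, it was found in 2 of 65 (3.08%) at 2 weeks and 8 of 396 (2.02%) at 0 weeks.

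Cxcr4, the receptor for Cxcl12, had 51.6 CPM in healthy members and 389 at 2 weeks, a ratio of 7.54 (95% interval 5.17-11), and was at 60.8 CPM at 12 weeks. Unlike Fn1 it was widespread, in 37 of 79 members at 2 weeks against 41 of 396 at 0 weeks, and its ratio was 7.7 in class II-high and 6.67 in class II-low members. The 2-week ratio of the hypoxia-responsive Ndrg1 was 13.7 (95% interval 7.28-27.1) in members and 3.23 (95% interval 2.33-4.4) in FB-like cells. The receptor gene Tnfrsf1b was at 3.48 and Ccr1, a receptor for Ccl3, at 0.202, with 4 of 13 receptor genes 2-fold or more higher and 1 lower, against 10.9% and 9.45% of all genes.

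Lipid-handling genes were higher at 2 weeks in part: 5 of 14 lipid genes were 2-fold or more higher and none lower, against 10.9% and 9.45% of all genes. The fatty acid carrier Fabp4 stood at 321, 1132 and 152 CPM at 0, 2 and 12 weeks (3.52, 95% interval 2.93-4.22 at 2 weeks), its relative Fabp5 at 45.7, 224 and 60.8 (4.9, 95% interval 3.11-7.67), and galectin 3 (Lgals3) at 405, 1238 and 471 (3.06, 95% interval 2.58-3.62). The lysosomal protease Ctsd stood at 289, 890.2 and 319 CPM, a ratio of 3.08 (95% interval 2.51-3.76). The ratios stood higher in class II-low than in class II-high members, a difference that was not tested: Ctsd at 5.84 (95% interval 4.16-8.21) against 2.03 (95% interval 1.54-2.66), Fabp4 at 5.91 (95% interval 3.94-8.89) against 3.06 (95% interval 2.48-3.77), and Lgals3 at 4.11 (95% interval 2.99-5.63) against 2.64 (95% interval 2.14-3.24). Apoe went apart, at 1.94 (95% interval 1.81-2.07) in class II-low and 0.686 (95% interval 0.651-0.723) in class II-high members. The class II-low group at 2 weeks is 18 cells. Fabp4 and Fabp5 are among the genes by which the study annotated its endothelial cells. Endothelial-like cells numbered 797 of 3892, 1197 of 2231 and 170 of 792 cells in the 3 libraries. At 2 weeks 5 of 18 class II-low and 7 of 61 class II-high members had a UMI of Pecam1, Cdh5, Kdr or Egfl7. The part of endothelial message in the members' Fabp4 and Fabp5 was not tested. Spp1 was at 2.86 (95% interval 1.83-4.38), and Trem2, a lipid receptor, at 2.16 (95% interval 1.58-2.92).

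Part of the resident genes was lower at 2 weeks. Of 15 compared, 12 had a ratio below 1, as had 2312 of all 4997 genes, and 7 were 2-fold or more lower, against 9.45% of all genes, and 1, the lectin Clec10a, was 2-fold higher with an interval that included 1 (2.02, 95% interval 0.725-4.93). Pf4 stood at 2080.1, 814 and 2294 CPM at 0, 2 and 12 weeks, a 2-week ratio of 0.391 (95% interval 0.327-0.465), and Sepp1 at 2005, 837 and 2309.6, a ratio of 0.417 (95% interval 0.35-0.495). Gas6, a ligand for receptors that take up dead cells, was at 0.332 (95% interval 0.141-0.671), the prostaglandin-degrading Hpgd at 0.239 (95% interval 0.102-0.479) and Mgl2 at 0.327 (95% interval 0.217-0.475), while Maf (0.887, 95% interval 0.603-1.27) and F13a1 (0.84, 95% interval 0.549-1.24) had intervals that included 1. Per cell, the 20 resident genes made up a median of 0.568%, 0.208% and 0.850% of UMIs at 0, 2 and 12 weeks, so the 2-week members were the low ones. The difference was present on both sides of the class II split, with Pf4 at 0.378 in class II-high and 0.398 in class II-low members. Members with exactly 1 UMI of Folr2, Lyve1 and Cbr2 were also fewest at 2 weeks (25.3%, 7.59% and 29.6% in the 3 libraries). The part of these cells in the resident genes was not tested.

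The class II genes of the choice had ratios to the healthy members of at most 1.46 at 2 weeks and 1.45 at 12 weeks, both those of H2-Eb1. H2-Aa stood at 8895, 10010.1 and 11289.7 CPM, H2-Ab1 at 9336, 9179 and 12156 and H2-Eb1 at 6568, 9586 and 9542 at 0, 2 and 12 weeks, and Cd74 at 31993, 29010.4 and 41482. Class I genes were 2-fold or more higher at 2 weeks in 3 of 10 cases, against 10.9% of all genes, H2-K1 at 2.1 (95% interval 1.82-2.42), H2-T23 at 2.84 (95% interval 1.78-4.45) and H2-Q7 at 3.4 (95% interval 2.13-5.33); in FB-like cells 2 of 9 were, where 9.88% of all genes compared were higher and 9.53% lower. The costimulatory Cd86 was at 0.501 (95% interval 0.333-0.727) and Cd40 at 3.03 (95% interval 1.51-5.81).

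Of 19 chemokines and cytokines 4 were 2-fold or more higher at 2 weeks, against 10.9% of all genes. Among them were Il1rn at 3.49, Il6 at 2.31 (95% interval 0.884-5.42) and Osm at 2.25. The interferon-induced Cxcl10, which is not on this list, was at 2.5 (0.870, from 3 and 28 UMIs, with members chosen among cells thinned to 1000 UMIs). Ccl2 stood at 1339, 672 and 3282 CPM at 0, 2 and 12 weeks, a 2-week ratio of 0.502 (95% interval 0.411-0.608), and Il1b at 3557, 2818 and 3388, a ratio of 0.792 (95% interval 0.719-0.872). Mmp13 had 263 UMIs in 98 of 396 healthy members and 1 UMI in 79 members at 2 weeks, a ratio of 0.023 (95% interval 0.000581-0.129), and the receptor gene Lilra5 was at 0.105 (95% interval 0.0283-0.272). Bank1, an adaptor best known from B cells, had 59 UMIs in 50 of 396 healthy members and 0 at 2 weeks, and the 105 UMIs of Dct at 0 weeks were those of 1 cell. The FB gene Dcn was also at the low end, at 414, 29.5 and 258 CPM, as were Gsn at 0.251 (95% interval 0.178-0.346) and Pi16 and Meg3, with 98 and 65 UMIs in healthy members and 0 at 2 weeks. FB-like cells went from 1015 of 3892 to 84 of 2231 cells between these libraries, and their part in the members' FB message was not tested.

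**Figure D4:**
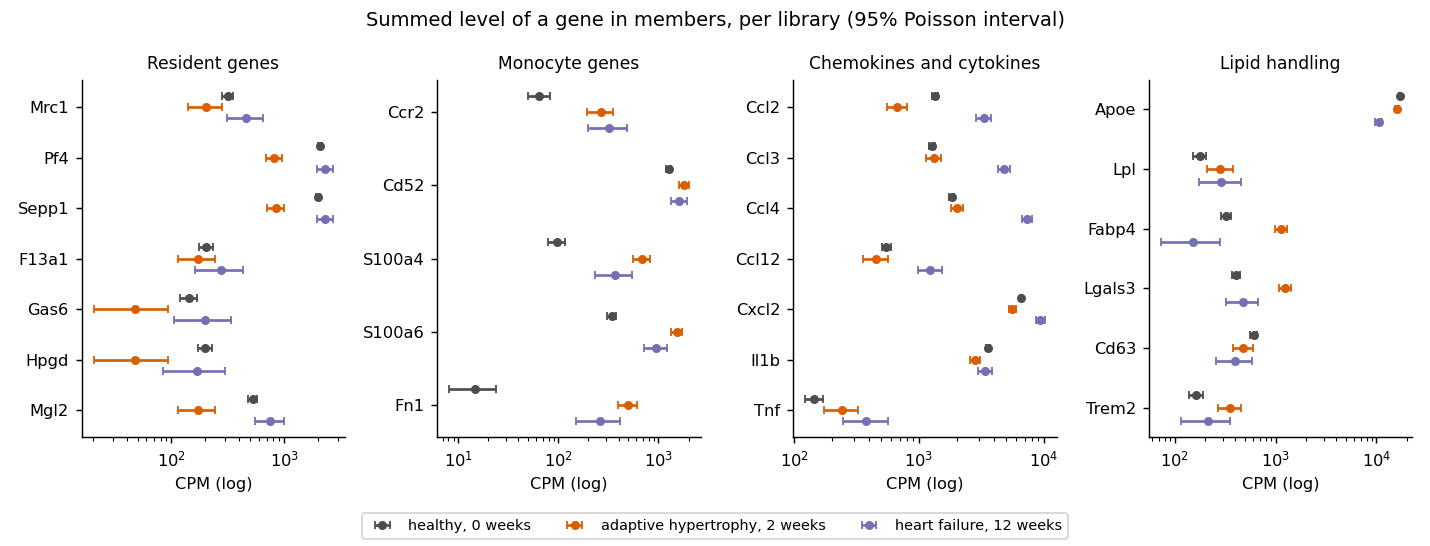
Level of a gene summed over members, in CPM (x axis, log scale), with 95% Poisson intervals, in the healthy (grey), 2-week (orange) and 12-week (purple) libraries, in 4 panels of genes listed on the y axis. Resident genes such as Pf4 lie lowest at 2 weeks, the monocyte genes Ccr2, S100a4, S100a6 and Fn1 lie higher at 2 and 12 weeks than at 0, and Ccl2, Ccl3, Ccl4 and Ccl12 lie highest at 12 weeks. At 12 weeks 15 of the 17 UMIs of Fn1 were in 1 cell.

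The 12-week members, 27 cells, were compared with the same healthy members. Of 4697 genes compared, 12.2% were 2-fold or more higher and 9.18% lower (574 and 431), with a median log2 ratio of 0.00. This balance depended on the processing: leaving out the top cell of each gene in both groups gave 218 higher and 637 lower, and a mean over cells 714 higher and 822 lower. Chemokines stood out by count: 9 of 18 chemokines and cytokines were 2-fold or more higher and none lower. This count includes Il6, with 24 of its 25 UMIs in 1 cell. Cxcl10, which is not on this list, had 38 UMIs in 3 cells. Ccl3, which attracts leukocytes, stood at 1275, 1309 and 4786 CPM at 0, 2 and 12 weeks, a ratio of 3.75 (95% interval 3.31-4.25), and its relative Ccl4 at 1826, 2010.3 and 7339, a ratio of 4.02 (95% interval 3.63-4.44). Thinned to 1000 UMIs, Ccl3 was found in 35.4% of healthy members, 44.6% at 2 weeks and 75% (50.9-91.3%, 20 cells) at 12 weeks, and in 0.394% of healthy FB-like cells. In FB-like cells none of 12 chemokines and cytokines was 2-fold or more higher at 12 weeks and 3 were lower, against 6.88% and 7.04% of all genes. The monocyte chemokines Ccl2, Ccl7 and Ccl12 were at 2.45 (95% interval 2.11-2.83), 2.2 (95% interval 1.72-2.77) and 2.24 (95% interval 1.75-2.83), and Tnf at 2.62 (95% interval 1.64-4.02). Il1b did not follow, at 0.953 (95% interval 0.828-1.09), and Cxcl16, the ligand of Cxcr6, was at 0.546 (95% interval 0.344-0.827). Per cell, the list made up a median of 1.39%, 1.53% and 2.66% of UMIs in the 3 libraries.

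Immediate early genes, which dissociation is known to induce, were higher too: 8 of 19 immediate early and stress genes were 2-fold or more higher at 12 weeks and 1 was lower, against 12.2% and 9.18% of all genes. Fos stood at 1149.5, 931 and 2507 CPM at 0, 2 and 12 weeks (2.18, 95% interval 1.84-2.57), Egr1 at 426, 307 and 1124 (2.64, 95% interval 2.03-3.38) and Nr4a1 at 318, 383 and 927 (2.91, 95% interval 2.18-3.84). In FB-like cells 1 of the 19 was 2-fold or more higher, where 6.88% of all genes compared were higher and 7.04% lower, with Fos at 1.37. The heat shock genes Dnajb1 (0.207, 95% interval 0.083-0.43), Dnaja1 (0.31, 95% interval 0.205-0.449) and Hsp90aa1 (0.418, 95% interval 0.319-0.539) were lower. Tiparp and Emp1 had 182 and 144 UMIs in healthy members and 0 at 12 weeks. Whether the dissociation took part in the chemokine levels was not tested.

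Of the monocyte list, 4 of 8 genes were 2-fold or more higher at 12 weeks, against 12.2% of all genes. Among the 4 was Fn1, with 15 of its 17 UMIs in 1 cell. The top cell of each gene held 8 of the 21 UMIs of Ccr2 and 11 of the 24 UMIs of S100a4. Ccr2 was at 4.97 (95% interval 2.89-8.22), found in 7 of 27 members and, thinned to 1000 UMIs, in 20% (5.73-43.7%) of the 20 cells deep enough, and S100a4 and S100a6 at 3.78 (95% interval 2.32-5.96) and 2.77 (95% interval 2.08-3.63). Of 15 resident genes none was 2-fold or more lower in this library, against 9.18% of all genes, and 11 had a ratio above 1, as had 2212 of all 4697 genes. Pf4 and Sepp1 stood at 1.1 (95% interval 0.929-1.3) and 1.15 (95% interval 0.97-1.36). Ccr2 in the 12-week members was thus nearer to its 2-week level, and Pf4 and Sepp1 nearer to their healthy level. Apoe was at 0.617 (95% interval 0.571-0.666), Fabp4 at 0.473 (95% interval 0.225-0.881) and Cd74 at 1.3 (95% interval 1.25-1.35), and of the 9 presentation genes 1 was 2-fold or more higher.

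Some of the highest 12-week ratios were shared with other cells or rest on single cells. Gm10116 was at 27.5 (95% interval 20-38.1) in members and 26.5 (95% interval 19.7-36.1) in FB-like cells, and Gm10020 at 27 and 25.6. These genes were thus higher outside members as well, as was Gm10800 at 2 weeks, at 34.3 in members and 138 in FB-like cells. Il6 stood at a ratio of 18.6 with 24 of its 25 UMIs in 1 cell and at 1.10 without it. Fn1, in 2 cells, was at 17.7 and at 3.20 (0.345-14.7) without the top cell. Cxcl10 had 38 UMIs in 3 cells (12.9, 95% interval 8.17-20.3, and 8.70 without the top cell), and Retnla 212 UMIs in 4 cells.

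**Figure D5:**
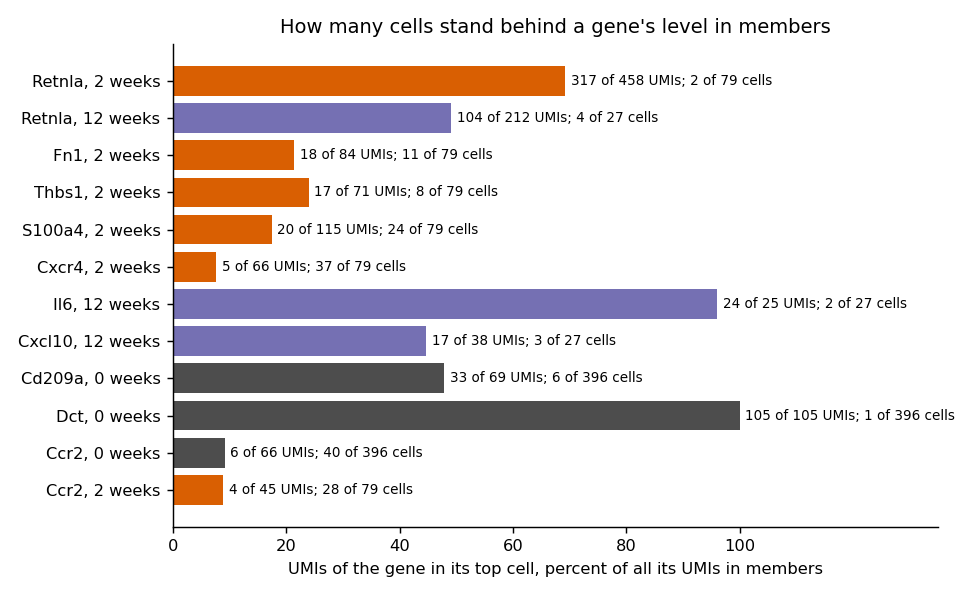
Bars give the UMIs of a gene in its top cell as percent of all its UMIs in the members of a library (x axis), for the genes and libraries named on the y axis, with the numbers of UMIs and of cells at the end of each bar; colours are those of the libraries (grey 0, orange 2 and purple 12 weeks). Il6 at 12 weeks and Dct at 0 weeks come from 1 cell almost alone (24 of 25 and 105 of 105 UMIs), while Cxcr4 and Ccr2 at 2 weeks are spread over 37 and 28 of 79 cells.

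Last, members were set against the Folr2/Lyve1/Cbr2 macrophages of the same library, where library effects are shared. The choice of cells made this contrast, so it is a description. In the healthy library 7123 genes were compared, of which 2.58% were 2-fold or more higher in members (184) and 6.22% lower (443), with a median log2 ratio of -0.14; with ratios divided by their median, 242 were higher and 339 lower. Resident genes outside the choice of cells went with Folr2, Lyve1 and Cbr2: all 18 compared were lower in members, as were 4450 of all 7123 genes, and 14 of them were 2-fold or more lower. Fcna had 3 UMIs in members and 128 in Folr2/Lyve1/Cbr2 macrophages (0.0313, 95% interval 0.00637-0.0935), Timd4, a receptor for phosphatidylserine, 9 and 154 (0.078, 95% interval 0.035-0.152), and F13a1 stood at 203 against 1291 CPM (0.158, 95% interval 0.136-0.182). The scavenger receptor Cd163 was at 0.224 (95% interval 0.17-0.29), Gas6 at 0.327 (95% interval 0.271-0.392), Pf4 at 0.433 (95% interval 0.412-0.455) and Mrc1 at 0.436 (95% interval 0.383-0.494). At 2 weeks, with 10 Folr2/Lyve1/Cbr2 macrophages, Pf4 was at 0.251 (95% interval 0.193-0.326), and at 12 weeks, with 12, at 0.331 (95% interval 0.267-0.409).

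Single chemokines and cytokines stood lower or higher in members, and no count over their list is given. Of all genes compared in the healthy library, 2.58% were 2-fold or more higher and 6.22% lower. Ccl8 had 5 UMIs in healthy members and 168 in Folr2/Lyve1/Cbr2 macrophages (0.0397, 95% interval 0.0127-0.0946), and Ccl7, Ccl2 and Ccl24 were at 0.282, 0.433 and 0.13. Ccl12 and Cxcl10 differed less, at 0.707 and 0.675. The cytokine Tslp was at 0.0223 (95% interval 0.000554-0.129) and the endothelin receptor Ednrb at 0.0697 (95% interval 0.025-0.156). Il1b was the higher one in members, at 3557 against 1518 CPM (2.34, 95% interval 2.22-2.47), with 4.14 (95% interval 2.7-6.67) at 2 weeks and 13.2 (95% interval 6.57-30.9) at 12 weeks. Ccl3 stood at 1.69 (95% interval 1.56-1.84) at 0 weeks and 14.9 (95% interval 7.99-31.4) at 12 weeks, when its level was 4786 CPM in members and 321 in the 12 Folr2/Lyve1/Cbr2 macrophages. Ccl4 was at 1.24 (95% interval 1.16-1.32) and 12.7 (95% interval 7.94-21.6). Of the 12 Folr2/Lyve1/Cbr2 macrophages at 12 weeks, 5 had over 10% of UMIs from mitochondrial genes and 1 held 11258 of the group's 31120 UMIs, and the part of these cells in the 12-week ratios was not tested.

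Several matrix and presentation genes were higher in healthy members. Mmp12, the macrophage elastase, was at 77.9 against 9.48 CPM (8.22, 95% interval 4.54-16.1), Mmp14, a membrane-bound collagenase, at 15.4 (95% interval 3.79-134), Mmp13 at 2.58 (95% interval 2.09-3.2) and Spp1 at 8.5 (95% interval 4.47-17.8), and 6 of 15 growth factor and matrix genes were 2-fold or more higher, against 2.58% of all genes. The cystine transporter Slc7a11 was at 8.39 (95% interval 3.75-22.1). Cd74 stood at 31993 against 10652 CPM (3.0, 95% interval 2.95-3.06), H2-DMb1 at 2.74 (95% interval 2.38-3.16) and H2-DMa at 1.87 (95% interval 1.66-2.1); 12 of 13 presentation genes had a ratio above 1, as had 2673 of all 7123 genes, and 3 were 2-fold or more higher. Ccr2 was at 64.2 against 19.7 CPM (3.26, 95% interval 2.06-5.31), and at 2 weeks, where Folr2/Lyve1/Cbr2 macrophages had 6 UMIs in 2 of 10 cells, at 1.43 (95% interval 0.608-4.1). Cd209a, with 0 UMIs in the healthy Folr2/Lyve1/Cbr2 macrophages, was at least 30.7-fold higher in members when 3 UMIs were set for the group, with an exact 95% interval that started at 24.3, or at 12.4 without its top cell. Of its 69 UMIs in members, 62 were in 2 cells. Apoe (0.66, 95% interval 0.648-0.672) and Lyz2 (0.724, 95% interval 0.709-0.739) were lower.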

How the data were processed

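Non-CMs from mouse ventricles were run on the Chromium 3' v2 system, 1 library per phase. The deposited files are whole-number UMI counts per gene and cell, which the authors made with Cell Ranger 2.0.0 on mm10; the annotation version is not given in the sources used here. The matrices hold 3900, 2239 and 802 barcodes at 0, 2 and 12 weeks. Cells with under 200 genes were left out, leaving 3892, 2231 and 792 cells with 12287823, 4465929 and 1712728 UMIs. Doublets were called with Scrublet (scanpy 1.11.5) but kept. FB-like and endothelial-like cells had at least 5 UMIs of their own set of genes and over 2 times as many as of C1q and each other set.

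Members and gene lists were chosen with earlier results of these data known. UMIs were summed per library and group and scaled to CPM. Levels carry exact Poisson, ratios conditional binomial and shares Clopper-Pearson 95% intervals (scipy 1.17.1, numpy 2.4.6, pandas 2.3.3). With 1 library per phase no test was run and no p-value is given. A group with 0 UMIs was set to 3 UMIs for a bound. The computation was tested on simulated data with known folds. Named genes are those used to choose cells, list genes with at least 20 UMIs, and per comparison the 8 genes in each direction whose interval lay farthest from 1, leaving out mitochondrial, ribosomal and haemoglobin genes; other genes named for comparison were chosen after their values were seen. Alternatives were other limits for C1q, Folr2/Lyve1/Cbr2, class II, genes per cell and UMIs per gene, a mitochondrial limit, doublet removal, thinning to 1000 UMIs, median scaling and a mean over cells. Gene positions are from GENCODE vM21 and promoter sequences from RefSeq (GRCm38.p6). A result for 1 gene is not reported here.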

Additional observations from a re-analysis of the deposited data

Results flagged for a closer look

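Some genes had a ratio on opposite sides of 1 in different libraries. Each phase is 1 library, so these differences were not tested, and several rest on few cells. Between class II-high and class II-low members, Apoe was at 1.06 in the healthy library and 0.375 at 2 weeks, and Fabp5 at 4.91 (45 and 2 UMIs) and 0.216. With cells thinned to 1000 UMIs the healthy Fabp5 ratio was 0.901, from 14 and 7 UMIs, and thus below 1 as well. Areg was at 0.297 at 0 weeks, and at 2 weeks it had 34 UMIs in class II-high and 0 in class II-low members, at least 3.02-fold higher when 3 UMIs were set for the group (exact 95% interval from 2.33). Jund was at 1.24 at 0 weeks and 0.402 at 12 weeks, where class II-low members are 4 cells with 17 UMIs of Jund, 3 of them with over 10% of UMIs from mitochondrial genes, so this value says little about the group.

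Between members and Folr2/Lyve1/Cbr2 macrophages, of which there were 10 at 2 weeks and 12 at 12 weeks, S100a4 was at 0.703 in the healthy library and 3.13 at 2 weeks. Dusp1 was at 1.18 and 0.352, Nfkbia at 1.12 and 0.407, and Ms4a7 at 1.12 and 0.487 in the same libraries. Ccl12 was at 0.707 in the healthy library and 4.79 at 12 weeks. Cxcl10 was at 0.675 in the healthy library, and at 12 weeks it had 38 UMIs in members and 0 in Folr2/Lyve1/Cbr2 macrophages, at least 5.99-fold higher when 3 UMIs were set for the group (exact 95% interval from 4.64).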

How the results depend on the processing

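Of 10056 gene ratios recomputed under the alternatives, 9546 stayed inside their counting interval, 500 left it and 10 crossed 1. No paired analysis was possible because each phase is 1 library and no result comes from a test. Leaving out the top cell of each gene was chosen after seeing the data. With cells thinned to 1000 UMIs, class II-high against class II-low ratios crossed to 0.788 for Acta2, 0.901 for Fabp5 and 0.721 for Naaa, the 2-week ratio of Cxcl10 to 0.870 and that of Retnla, with 0 UMIs at 2 weeks set to 3, to a bound of at most 0.251, 12-week ratios to 0.751 for Batf3 and 1.25 for Ccrl2, and Stmn1 in members against Folr2/Lyve1/Cbr2 macrophages to 1.03. Batf3 at 12 weeks was also at 0.644 with at least 10 C1q UMIs and 0.609 without its top cell. The member share of C1q macrophages at 0 weeks was 64.2% thinned and 35.2% with no Folr2, Lyve1 or Cbr2 UMI allowed, and at 12 weeks 48.7% with none allowed. The class II-high share was 68.9% thinned at 0 weeks, and 65.8% at 2 weeks with a limit of 10 UMIs. Counts of 2-fold genes moved with the minimum of UMIs, to 440 higher and 808 lower (at least 10) or 43 and 51 (at least 50) in class II-high members, 1038 higher (10) or 201 and 172 (50) at 2 weeks, 1056 higher (10) or 183 and 251 (50) at 12 weeks, and 413 and 768 (10) or 74 and 166 (50) against Folr2/Lyve1/Cbr2 macrophages. Thinned, they were 86 higher and 193 lower in class II-high members, 151 lower at 12 weeks and 229 lower against Folr2/Lyve1/Cbr2 macrophages. Median scaling gave 192 lower in class II-high members, and a mean over cells 714 higher and 822 lower at 12 weeks. Without top cells 296 genes were higher and 173 lower in class II-high members, 359 higher and 682 lower at 2 weeks, and 218 higher and 637 lower at 12 weeks, so the larger of the 2 counts changed sides in these 3 comparisons; against Folr2/Lyve1/Cbr2 macrophages it did not, at 165 higher and 467 lower. The groups held 318 and 78, 79 and 396, and 27 and 396 cells in the 3 comparisons that changed, and 396 and 444 in the other. Leaving out 1 cell takes a larger part of a small group, so these counts cannot show which direction prevailed. The part of group size in the change was not tested. The 12-week values rest on 27 members.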
